A study of Rattus norvegicus with 18 samples.

Results

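The family of miR-148 and miR-152 was followed in gastrocnemius muscle of male Brown Norway rats. Its members were taken by name, as every row of the count table for miR-148a, miR-148b or miR-152, whichever arm of the hairpin. This gave 6 of the 909 entries of the table (763 known miRNAs and 146 predicted candidates), the 3p and the 5p strand of each gene. A predicted candidate had counts within 10%, or 2 counts, of those of rno-miR-152-3p in all 18 libraries, and it was not counted as a member. Small RNA was sequenced from 18 rats, 1 library per rat and 6 per group. Young AL rats were 6 months old and fed ad libitum, old AL rats were 28 months old and fed ad libitum, and old CR rats were 28 months old and on caloric restriction (CR) at 55% of the ad libitum intake. All rats were fed ad libitum in group housing until they were 2 months old and were housed singly thereafter, and there was no young group on CR. The muscle was sequenced whole, so that fewer cells of a type and less RNA per cell cannot be told apart.

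A miRNA recognises its targets mainly through its seed, bases 2 to 8 of the mature strand. The main strands of this family, the 3p strands, share a seed and are therefore expected to bind many of the same mRNAs. Known targets of the family include the DNA methyltransferase Dnmt1, the low-density lipoprotein receptor and the cholesterol exporter Abca1, and miR-148a is known to favour the differentiation of myoblasts. miR-148a is also abundant in liver and is known from lymphocytes, where it favours the plasma cell fate. Neither mRNA nor protein of these targets is part of the table.

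The mature sequences below are those of RefSeq on the GRCr8 assembly, which held 5 of the 6 members, and they are shown because the 3 main strands differ in few bases. Capitals mark the seed, bases 2 to 8 counted from the 5′ end, in the main strands and in the 5p strands of miR-148a and miR-152.
rno-miR-148a-3p: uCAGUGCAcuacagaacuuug
rno-miR-148b-3p: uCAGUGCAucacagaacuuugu
rno-miR-152-3p: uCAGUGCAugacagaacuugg
rno-miR-148a-5p: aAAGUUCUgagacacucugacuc
rno-miR-152-5p: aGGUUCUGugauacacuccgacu
Among the 693 mature rat miRNAs of RefSeq, the 3 main strands were the only ones with CAGUGCA at bases 2 to 8, and 12 held these letters at any position. In rno-miR-130a-3p, rno-miR-130b-3p and rno-miR-301b-3p they stood 1 base earlier, at bases 1 to 7, as marked by the capitals in 1 of them.
rno-miR-130a-3p: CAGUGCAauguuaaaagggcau
From rno-miR-148a-3p, rno-miR-148b-3p differed by C9U and U10C over the 21 bases compared, and rno-miR-152-3p by C9U, U10G and U20G. Between rno-miR-148b-3p and rno-miR-152-3p the differences were C10G and U20G. How reads that match several of them were assigned is not given in the sources used here. In the RefSeq annotation of GRCr8, used for names and overlaps only, the miR-148b gene lay within Copz1 on chromosome 7 and the miR-152 gene within Copz2 on chromosome 10, genes of paralogous coatomer subunits, whereas the miR-148a gene on chromosome 4 overlapped no annotated gene.

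The counts of a library totalled 34940346 to 83110905, and the miR-1 family took 60.7 to 86.8% of them. The unit of a level is CPM, a library's counts scaled to a total of 1 M with TMM, which allows for such dominant entries, with factors of 0.639 to 2.14. The 5 members with a sequence are 21 to 23 bases long. Ligation in small RNA libraries is known to depend on the sequence, and a CPM level set beside that of another member is not corrected for it. The muscle markers miR-1-3p, miR-133a-3p, miR-133b-3p, miR-206-3p, miR-208b-3p and miR-499-5p were counted in every library. Of the 5 leukocyte miRNAs examined (miR-142-5p, miR-142-3p, miR-150-5p, miR-155-5p and miR-223-3p), old AL replicate 8 stood apart in all but miR-223-3p. The 5 summed to 604 CPM there, 239 CPM in old CR replicate 18 and 108 to 183 CPM in the other 16 libraries. The fold changes of miR-148a and its ratios to the other main strands are given with and without these libraries.

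miR-148a-3p was the most abundant member in every library. Its mean level over the 18 libraries was 2800 CPM, rank 23 among the 763 known miRNAs. rno-miR-152-3p followed with 224 CPM (rank 62) and rno-miR-148b-3p with 73.5 CPM (rank 92). Of the counts of the 3 main strands, miR-148a-3p took 74.9 to 96.5%, miR-152-3p 2.46 to 19.4% and miR-148b-3p 1.02 to 5.76%. The 5p strands, the passenger strands of this family, averaged 16.2 CPM for miR-148a-5p, 2.04 CPM for miR-148b-5p and 1.08 CPM for miR-152-5p. Together they made up 0.453 to 0.768% of the family's counts.

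The members differed widely in how much they varied from rat to rat. From the lowest to the highest of the 18 libraries, miR-148a-3p spanned 10.3-fold and miR-148a-5p 8.62-fold, whereas miR-148b-3p spanned 1.97-fold and miR-152-3p 1.89-fold. Among the 170 known miRNAs with a mean of at least 10 CPM, the SD of log2 CPM within groups had a median of 0.35. It was 0.91 for miR-148a-3p (rank 11 from the most variable) and 0.92 for miR-148a-5p (rank 10). For miR-148b-3p it was 0.28 (rank 134) and for miR-152-3p 0.19 (rank 163). With TMM, the family thus held members near both ends of this order of abundant miRNAs of this muscle. The spread depends on the scaling, and this order was not examined under others. In old AL against young AL the standard error of the log2 fold change was 0.13 for miR-152-3p and 0.15 for miR-148b-3p with TMM. With library totals these were 0.24 and 0.29. For miR-148a-3p the standard error was 0.50 with TMM and 0.65 with library totals.

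**Figure D1:**
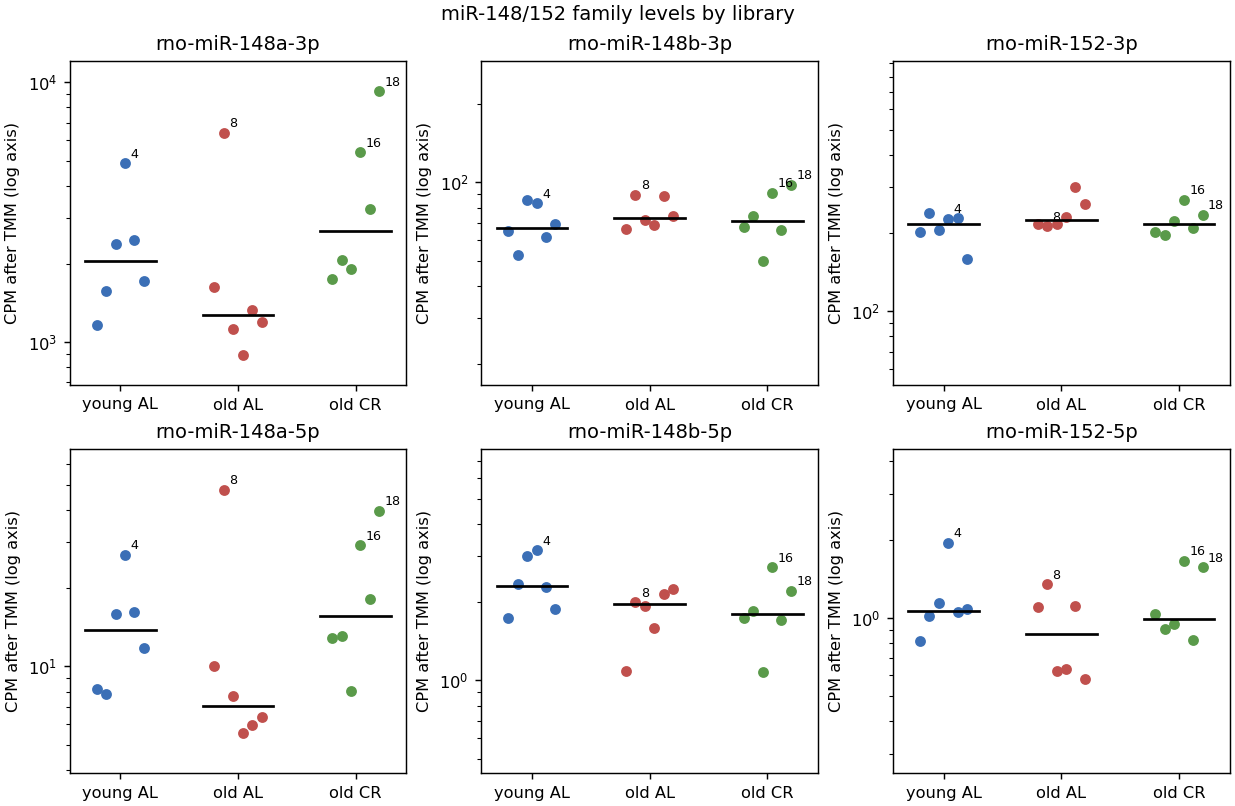
Level of each of the 6 family members in each library, in CPM on a log axis that covers the same fold range in every panel, by group (6 points each, the line is the median, and replicates 4, 8, 16 and 18 carry their number). miR-148a-3p and miR-148a-5p were high in these 4 libraries, which lay in all 3 groups. With TMM, miR-148b-3p and miR-152-3p stayed within a 2-fold range over all libraries.

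rno-miR-148a-3p had a lowest, median and highest level of 1164, 2054 and 4874 CPM among the young AL rats. In old AL these were 895, 1266 and 6408 CPM, and in old CR 1752, 2667 and 9230 CPM. The medians were thus ordered old AL, young AL, old CR, but the 3 groups overlapped and each held 1 or 2 libraries far above the rest. These were young AL replicate 4 (4874 CPM, the next 2472), old AL replicate 8 (6408 CPM, the next 1633), and old CR replicates 18 and 16 (9230 and 5384 CPM, the next 3257). Means were 2366 ± 1326, 2099 ± 2125 and 3936 ± 2929 CPM (SD, n = 6 each) in young AL, old AL and old CR. They rested on 59026 to 776488 counts per library, so that counting error was small against the spread between rats.

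rno-miR-148a-5p, from the other arm of the same hairpin, moved with it. It was at 7.85 to 26.9 CPM among the young AL libraries (median 13.8), at 5.56 to 47.9 CPM among the old AL libraries (median 7.05) and at 8.02 to 39.8 CPM among the old CR libraries (median 15.6). The same 4 libraries were the highest, with 47.9 CPM in old AL replicate 8 and 39.8 CPM in old CR replicate 18. Over the 18 libraries Pearson's r of its log2 CPM with that of miR-148a-3p was 0.962 (Spearman's rho 0.946), given as a description, since both arms come from 1 precursor and 1 library. In a library the 3p strand had 134 to 239 counts for each count of the 5p strand.

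rno-miR-148b-3p kept to a narrow range with TMM. It was at 52.4 to 85.4 CPM among the young AL libraries (median 67.1), at 66.0 to 89.6 CPM among the old AL libraries (median 73.0) and at 49.8 to 97.9 CPM among the old CR libraries (median 70.9). The groups overlapped almost wholly, with means of 69.5 ± 12.8, 76.5 ± 10.2 and 74.4 ± 17.8 CPM (SD, n = 6 each). Its 5p strand, rno-miR-148b-5p, was at 1.74 to 3.18 CPM among the young AL libraries (median 2.32), at 1.09 to 2.26 CPM among the old AL libraries (median 1.97) and at 1.08 to 2.72 CPM among the old CR libraries (median 1.79).

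rno-miR-152-3p was the steadiest member with TMM. Its level was 159 to 239 CPM among the young AL libraries (median 215.9), 212 to 301.01 CPM among the old AL libraries (median 225) and 196 to 269 CPM among the old CR libraries (median 215.9). All but 1 library (young AL replicate 6, at 159 CPM) lay above 196 CPM, and the means were 210.1 ± 28.9, 239.6 ± 34.4 and 222.4 ± 27 CPM (SD, n = 6 each). rno-miR-152-5p was the rarest member, with 36 to 132 counts per library. It was at 0.813 to 1.94 CPM among the young AL libraries (median 1.07), at 0.580 to 1.35 CPM among the old AL libraries (median 0.866) and at 0.825 to 1.66 CPM among the old CR libraries (median 0.991).

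Each pair of groups was tested by edgeR (quasi-likelihood) over all entries reaching 10 counts in total. An entry was called when its adjusted p (Benjamini-Hochberg) did not exceed 0.05 and its level changed 1.5-fold or more. The comparisons share groups and are not independent of each other. The first question was whether the family changed with age under free feeding. Between old AL and young AL the test called 0 of the 6 members, where it called 3.28% of the 732 entries tested, and 0 members had an unadjusted p under 0.05 (23.4% of all entries did). DESeq2 also called 0 members, with 0 at an unadjusted p under 0.05, and called 11.5% of all entries. No member had groups that did not overlap, which 3.55% of entries did. The median log2 fold change was -0.13 over the members and 0.06 over all entries.

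In old AL against young AL, log2 fold changes of the main strands were -0.18 for miR-148a-3p (standard error 0.50, adjusted p = 0.903), 0.14 for miR-148b-3p (standard error 0.15, adjusted p = 0.640) and 0.20 for miR-152-3p (standard error 0.13, adjusted p = 0.404, all from edgeR). The precision of these values differed greatly. For miR-148a-3p the 95% interval of the fold change ran from 0.412 to 1.88, which leaves room for a change of 1.5-fold either way. For miR-148b-3p it ran from 0.885 to 1.38 and for miR-152-3p from 0.936 to 1.40, so that with TMM a change of 1.5-fold lay outside both. That does not hold for every scaling. With library totals the log2 fold changes were 0.24 (standard error 0.29) for miR-148b-3p and 0.29 (standard error 0.24) for miR-152-3p, too imprecise to place it outside. The 5p strands gave log2 fold changes of -0.07 (miR-148a-5p), -0.38 (miR-148b-5p) and -0.38 (miR-152-5p), with adjusted p of 0.971, 0.305 and 0.408 from edgeR.

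Old AL replicate 8 and young AL replicate 4 moved the value of miR-148a in opposite directions. Without young AL replicate 4 the log2 fold change was 0.14 for miR-148a-3p and 0.18 for miR-148a-5p, the opposite sign. Without old AL replicate 8, the log2 fold change of miR-148a-3p in old AL against young AL was -0.91 (standard error 0.32, adjusted p = 0.140 from edgeR). That of miR-148a-5p was -1.0 (standard error 0.31, adjusted p = 0.0897 from edgeR). Neither was called (2.79% of entries were), and the groups still overlapped, as they did not for 4.18% of entries. Old AL replicate 8 was left out because its miR-148a lay apart, so these values are given as a description with no test.

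The second comparison asked how old muscle on CR differed from young muscle. Between old CR and young AL the test called 0 of the 6 members against 9.32% of the 730 entries tested, and 0 had an unadjusted p under 0.05 (25.5% of entries). DESeq2 called 0 members, with 0 at an unadjusted p under 0.05, and 14.9% of all entries. The members' groups overlapped in all 6 cases, while 5.48% of entries had groups that did not. Log2 fold changes were 0.73 for miR-148a-3p (standard error 0.47, adjusted p = 0.384 from edgeR), 0.09 for miR-148b-3p (standard error 0.18, adjusted p = 0.827 from edgeR) and 0.08 for miR-152-3p (standard error 0.13, adjusted p = 0.799 from edgeR). As fold changes, the 95% interval ran from 0.813 to 3.38 for miR-148a-3p, from 0.811 to 1.41 for miR-148b-3p and from 0.871 to 1.28 for miR-152-3p. The 5p strands gave 0.47 for miR-148a-5p, -0.36 for miR-148b-5p and -0.02 for miR-152-5p, with adjusted p of 0.557, 0.390 and 0.978 from edgeR. The median over the members was 0.09, against 0.08 over all entries.

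Single libraries also moved miR-148a between old CR and young AL. For miR-148a-3p the log2 fold change of 0.73 became 0.29 without old CR replicate 18 (standard error 0.41, adjusted p = 0.769 from edgeR). Without young AL replicate 4 it became 1.08. For miR-148a-5p it became 0.17 (adjusted p = 0.866 from edgeR) and 0.75. Young AL replicate 4 was the young AL library with the highest miR-148a, so the values without it are given as a description with no test. The estimate was positive in both cases, and its size depended on which of these rats was included.

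The effect of CR at a given age was read from old CR against old AL. Here edgeR called 0 of the 6 members and 0.272% of the 736 entries, and 0 members had an unadjusted p under 0.05, as 12% of entries did. DESeq2 called 0 members, with 0 at an unadjusted p under 0.05, and 2.58% of all entries. The groups of all members overlapped (0.543% of entries had groups that did not). miR-148a-3p had the largest estimate among the main strands, estimated at 0.92 on the log2 scale (standard error 0.59, adjusted p = 0.552 from edgeR), with a 95% interval of the fold change from 0.770 to 4.62. For miR-148b-3p it was -0.03 (standard error 0.17, adjusted p = 0.986, interval 0.755 to 1.26) and for miR-152-3p -0.10 (standard error 0.13, adjusted p = 0.827, interval 0.772 to 1.13, from edgeR). With library totals these log2 fold changes were -0.27 (standard error 0.32) and -0.31 (standard error 0.29), too imprecise to place a change of 1.5-fold outside. The log2 fold changes of the 5p strands were 0.54, 0.04 and 0.37 for miR-148a-5p, miR-148b-5p and miR-152-5p, with adjusted p of 0.804, 0.987 and 0.629 from edgeR. The median was 0.21 over the members and 0.01 over all entries.

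The value of miR-148a in this comparison depended on old AL replicate 8 and old CR replicate 18, which moved it in opposite directions. Without old CR replicate 18 alone the log2 fold change was 0.47 for miR-148a-3p (standard error 0.56, adjusted p = 0.817 from edgeR) and 0.24 for miR-148a-5p (standard error 0.62, adjusted p = 0.943 from edgeR). The other 5 old AL libraries held 895 to 1633 CPM of miR-148a-3p and the 6 old CR libraries 1752 to 9230 CPM, so that without old AL replicate 8, chosen here because it lay apart, the groups did not overlap. A higher level in every old CR library was then found for 0.825% of the 727 entries tested. The log2 fold change was 1.68 for miR-148a-3p and 1.51 for miR-148a-5p. Old AL replicate 8 was the old AL library with the highest miR-148a, so leaving it out by itself sets the groups apart. The values without it are given as a description with no test. With old CR replicate 18 left out as well, which was done after the values were seen, the log2 fold changes were 1.23 and 1.202. Every old CR library was again above every old AL library for miR-148a-3p, as for 0.834% of entries. The same limit holds for these values.

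**Figure D2:**
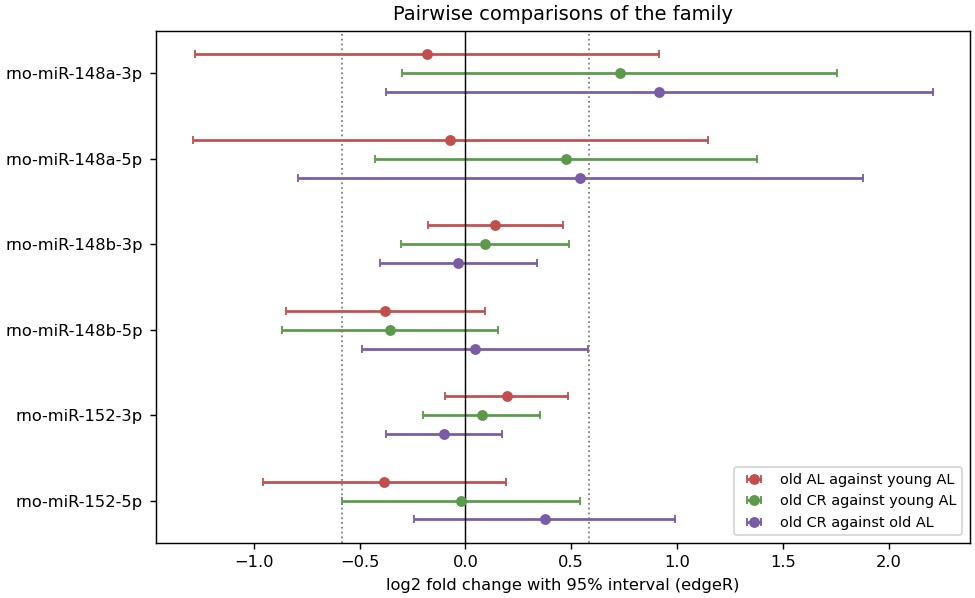
Log2 fold change of each member in the 3 comparisons with its 95% interval from edgeR's quasi-likelihood test (6 libraries per group), with dotted lines at a change of 1.5-fold either way. All intervals include 0. With TMM, those of miR-148b-3p and miR-152-3p stay within the dotted lines while those of miR-148a-3p and miR-148a-5p extend beyond them.

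Ratios between members of 1 library do not depend on how that library was scaled, and 6 of them were compared in the 3 comparisons (18 tests) by exact permutation of the libraries, two-sided, with 0.00216 as the smallest p that 6 against 6 libraries can give. The mean log2 ratio of miR-148b-3p to miR-148a-3p was -4.95 ± 0.59 for young AL, -4.40 ± 0.92 for old AL and -5.47 ± 0.70 for old CR (mean ± SD, n = 6 each). That of miR-152-3p to miR-148a-3p was -3.35 ± 0.67, -2.75 ± 1.11 and -3.87 ± 0.85. Relative to the other 2 main strands, miR-148a-3p was thus most abundant on average in old CR and least in old AL. From old AL to old CR the log2 ratios differed by -1.08 (miR-148b-3p to miR-148a-3p, exact permutation p = 0.0519, adjusted p = 0.279) and -1.12 (miR-152-3p to miR-148a-3p, exact permutation p = 0.0779, adjusted p = 0.279), which did not pass the threshold.

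These differences also depended on single libraries. Without old CR replicate 18 they were -0.86 and -0.83 (exact permutation p = 0.104 and 0.156, unadjusted). Without old AL replicate 8 they were -1.43 and -1.55, and with both libraries left out -1.21 and -1.26. Old AL replicate 8 was the old AL library that lay farthest towards old CR in these ratios, so that leaving it out by itself sets the groups apart, and the values without it are given as a description with no test. Between old CR and young AL the differences were -0.52 in both ratios, and -0.31 and -0.23 without old CR replicate 18. The ratio of miR-152-3p to miR-148b-3p moved little, with a mean log2 ratio of 1.60 ± 0.38 for young AL, 1.64 ± 0.21 for old AL and 1.61 ± 0.31 for old CR (mean ± SD, n = 6 each). None of its 3 comparisons passed (exact permutation p = 0.799 to 0.989).

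The balance of arms was compared in the same way. For miR-148b the 3p strand had 22.4 to 37.4 counts for each 5p count among the young AL libraries (median 27.6), 32.8 to 60.7 among the old AL libraries (median 42.3) and 33.5 to 46.3 among the old CR libraries (median 39.5). The ratio was thus higher in most old libraries, and young AL replicates 1 and 6 reached into their range. The log2 ratio was higher by 0.55 in old AL and by 0.46 in old CR than in young AL (exact permutation p = 0.0130 each), but neither difference passed the adjustment over the 18 tests (adjusted p = 0.117 each). The 2 differences share the young AL libraries. For miR-152 the log2 ratio of 3p to 5p was 7.51 ± 0.42 for young AL, 8.11 ± 0.57 for old AL and 7.62 ± 0.30 for old CR (mean ± SD, n = 6 each), with an exact permutation p of 0.0671 for old AL against young AL (adjusted p = 0.279). For miR-148a it was 7.33 ± 0.20, 7.38 ± 0.27 and 7.53 ± 0.31, with an exact permutation p of at least 0.217 in each comparison.

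**Figure D3:**
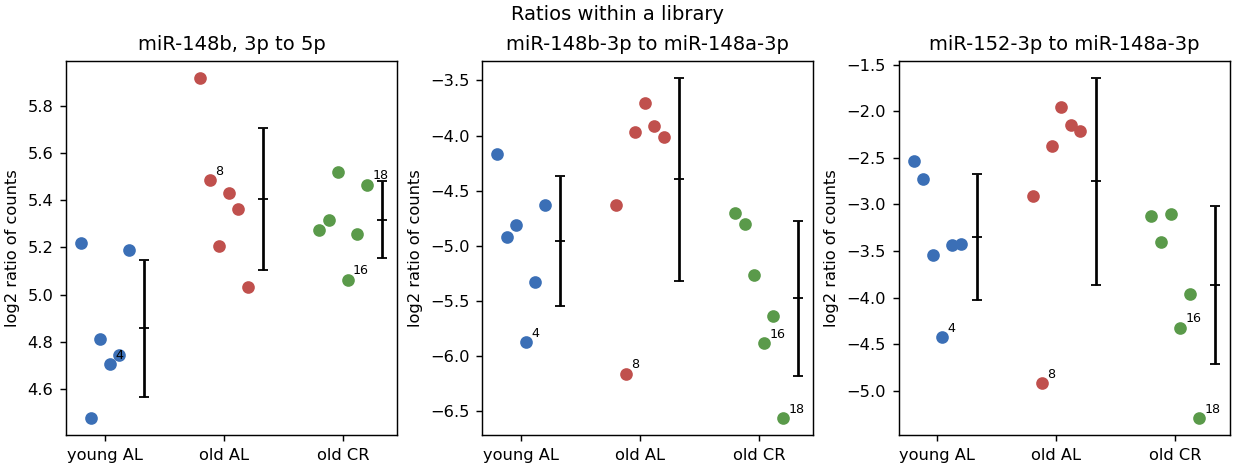
Log2 ratios of counts within each library by group (6 points each, the bar beside them is the mean ± SD, and replicates 4, 8, 16 and 18 carry their number). The 3p to 5p ratio of miR-148b lay higher in most old libraries, and old AL replicate 8 lay far below the other old AL libraries in both ratios to miR-148a-3p.

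With TMM, the main strands did not vary as 1 unit over the 18 libraries. Over the 18 libraries the log2 CPM of miR-148a-3p and miR-148b-3p had a Pearson's r of 0.550 (permutation p = 0.0188, adjusted over 3 pairs 0.0564) and a Spearman's rho of 0.424 (permutation p = 0.0822, adjusted 0.247). Within young AL, old AL and old CR, r was 0.614, 0.612 and 0.812 over 6 libraries each. Without the 2 libraries farthest from the median of miR-148a-3p, old AL replicate 8 and old CR replicate 18, r fell to 0.317, so that the relation rested in part on them. For miR-148a-3p and miR-152-3p r was 0.059 (permutation p = 0.814, rho -0.024 with p = 0.929, adjusted p equal to these), and it was 0.047 without those 2 libraries. Within groups it was 0.329, -0.371 and 0.706. For miR-148b-3p and miR-152-3p r was 0.263 (permutation p = 0.293, adjusted 0.440) and rho 0.209 (permutation p = 0.402, adjusted 0.603). It was 0.286 without old CR replicates 15 and 18, and -0.253, 0.410 and 0.503 within groups. These values depend on the scaling, and with library totals alone r was 0.754, 0.571 and 0.789 for the 3 pairs.

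The miRNAs whose levels were most like those of each main strand were found by Pearson's r of log2 CPM over the 18 libraries, among 166 known miRNAs outside the family with a mean of at least 10 CPM. For miR-148a-3p they were miR-425-5p (r = 0.879), miR-3120 (0.786) and miR-155-5p (0.755). miR-425-5p was at 23.8 to 36.2 CPM in the 4 libraries with high miR-148a-3p and at 14.4 to 22.8 CPM in the other 14. miR-155-5p, a regulator of lymphocyte activation, was at 79.5 CPM in old AL replicate 8 and 32.5 CPM in old CR replicate 18, against 4.56 to 12.4 CPM elsewhere. For miR-148b-3p they were miR-21-5p (0.838), an abundant miRNA of injury and inflammation, miR-450a-5p (0.685) and miR-101b-3p (0.681). For miR-152-3p they were let-7i-5p (0.727), miR-145-3p (0.666) and miR-199a-3p (0.589), the latter 2 known from smooth muscle and fibroblasts. The r values were chosen as the highest and carry no test, and all points share the scaling of their library.

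Some markers of leukocytes were high with miR-148a, mainly in 2 of its 4 high libraries. Over the 18 libraries Pearson's r of log2 CPM with miR-148a-3p was 0.576 for miR-142-5p, 0.758 for miR-142-3p and 0.755 for miR-155-5p. It was only 0.16 for miR-150-5p and 0.279 for miR-223-3p. In old AL replicate 8, miR-142-5p was at 139 CPM, miR-142-3p at 69.7 CPM and miR-150-5p at 311 CPM, and in old CR replicate 18 at 47.8, 26.0 and 128.2 CPM. In the 14 libraries with lower miR-148a-3p they were at 4.01 to 14.2, 0.401 to 4.37 and 86.5 to 168 CPM. In the other 2 high libraries the sum of the 5, most of which was miR-150-5p, was 132 CPM (old CR replicate 16) and 122.5 CPM (young AL replicate 4), within the 108 to 183 CPM of the 14 libraries. Single markers differed from the sum there. miR-142-3p was at 5.42 CPM in old CR replicate 16 and 6.70 CPM in young AL replicate 4, above all 14, and miR-155-5p was at 12.4 CPM in old CR replicate 16 against up to 11.8 CPM in the 14. miR-142-5p (9.40 and 8.76 CPM) and miR-150-5p (99.9 and 94.2 CPM) lay within the range of the 14. miR-223-3p was at 2.21 to 4.91 CPM throughout. Without old AL replicate 8 and old CR replicate 18, r with miR-148a-3p over the other 16 libraries was -0.063 for miR-142-5p, 0.527 for miR-142-3p, -0.367 for miR-150-5p, 0.579 for miR-155-5p and 0.085 for miR-223-3p. The part of leukocytes in the levels of miR-148a was not tested.

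Markers of other tissues were examined in the same 4 libraries. The liver miRNAs (miR-122-5p, miR-122-3p, miR-192-5p and miR-194-5p) summed to 97.6, 205.7, 274 and 74.9 CPM in old AL replicate 8, old CR replicates 18 and 16 and young AL replicate 4, against 45.4 to 918 CPM in the other 14. They summed to 45.4 to 95.7 CPM in young AL, 97.6 to 918 CPM in old AL and 168 to 281 CPM in old CR, and edgeR called 0, 2 and 0 of the 4 in old AL against young AL, old CR against young AL and old CR against old AL, where 3.28%, 9.32% and 0.272% of all entries were called. The pancreas list (miR-375-3p, miR-216a-5p and miR-217-5p) stayed at or under 3.76 CPM, with that value in old AL replicate 8. Of these 3, 1 (miR-375-3p) was called, higher in both old groups than in young AL, beside the same 3.28% and 9.32% of all entries. The erythroid list (miR-451-5p, miR-144-3p and miR-144-5p) summed to 3.29 to 11.7 CPM, and its highest sum was likewise that of old AL replicate 8. The list of fibroblasts and smooth muscle (miR-143-3p, miR-145-5p, miR-199a-3p and miR-214-3p) was highest in 3 of the 4 libraries (old AL replicate 8, old CR replicate 16 and young AL replicate 4), at 10670 to 11100 CPM, against 5895 to 9772 CPM in the other 14 and 7869 CPM in old CR replicate 18. In the leukocyte, striated muscle, erythroid and fibroblast and smooth muscle lists edgeR called 0 members in each of the 3 comparisons, beside the same shares. The part of these cell types in the levels of the family was not tested.

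**Figure D4:**
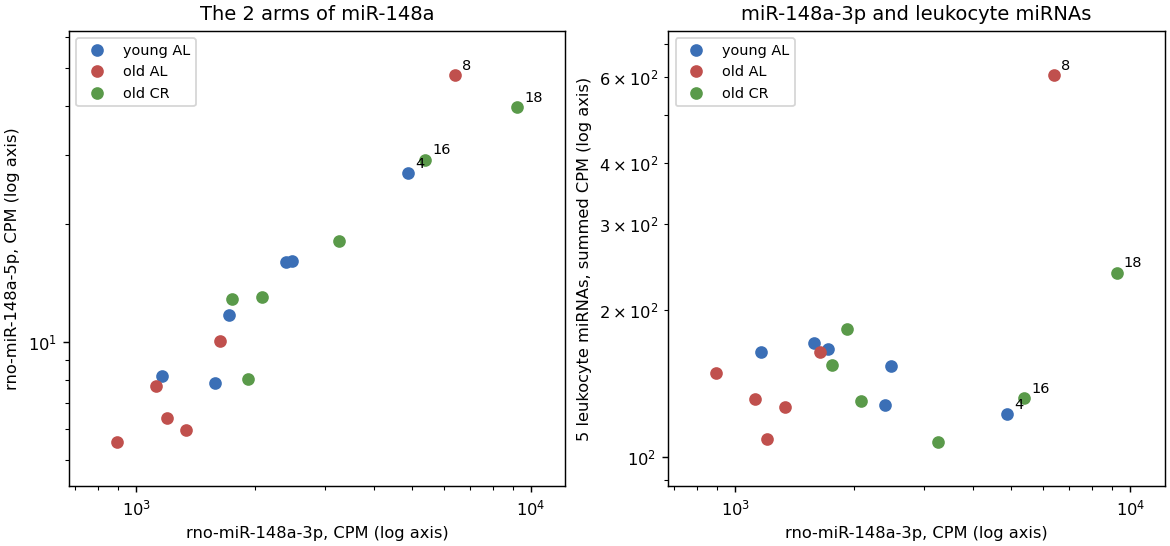
Each point is 1 library, with miR-148a-3p in CPM against miR-148a-5p in CPM (left) and against the summed CPM of the 5 leukocyte miRNAs (right), all on log axes, coloured by group, with replicates 4, 8, 16 and 18 numbered. Both arms of miR-148a rose together over all groups, whereas the leukocyte sum was above that of all other libraries in old AL replicate 8 (604 CPM) and old CR replicate 18 (239 CPM) and within their range in replicates 4 and 16.

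Other miRNAs known to act on DNA methyltransferases or on cholesterol handling were examined as well. Of 7 that target DNA methyltransferases (miR-29a-3p, miR-29b-3p, miR-29c-3p, miR-143-3p, miR-342-3p, miR-185-5p and miR-126a-3p), edgeR called 0 in each of the 3 comparisons, beside 3.28%, 9.32% and 0.272% of all entries. miR-29b-3p, which acts on Dnmt3a and Dnmt3b, was at 22.7 ± 6.80 CPM for young AL, 36.3 ± 9.96 CPM for old AL and 39.2 ± 10.4 CPM for old CR (mean ± SD, n = 6 each). It alone of the 7 had an unadjusted p under 0.05, with log2 fold changes of 0.69 in old AL (standard error 0.24, adjusted p = 0.126 from edgeR) and 0.78 in old CR (standard error 0.23, adjusted p = 0.0512 from edgeR) against young AL. This is 1 of 7 beside 23.4% and 25.5% of all entries at an unadjusted p under 0.05, and so no result about the list. The medians of the list were 0.28, 0.24 and -0.02 in old AL against young AL, old CR against young AL and old CR against old AL, where all entries had 0.06, 0.08 and 0.01.

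Of 9 miRNAs that act on cholesterol handling (miR-33-5p, miR-128-3p, miR-130b-3p, miR-301b-3p, miR-27a-3p, miR-27b-3p, miR-144-3p, miR-758-3p and miR-106b-5p), 8 had enough counts to be tested. edgeR called 0 in each comparison, beside 3.28%, 9.32% and 0.272% of all entries. miR-128-3p, which acts on the low-density lipoprotein receptor and Abca1, was at 711 ± 167 CPM for young AL, 484 ± 134 CPM for old AL and 518 ± 153 CPM for old CR (mean ± SD, n = 6 each), and its log2 value changed by -0.56 in old AL against young AL (standard error 0.20, unadjusted p = 0.0138, adjusted p = 0.127 from edgeR). It was 1 of 8 at an unadjusted p under 0.05 in that comparison, beside 23.4% of all entries, and so no result about the list. The medians of the list were -0.21, -0.12 and 0.10 in the 3 comparisons, where all entries had 0.06, 0.08 and 0.01.

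The miR-130 and miR-301 family, whose list was miR-130a-3p, miR-130b-3p, miR-301a-3p, miR-301b-3p and miR-454-3p (the last not matched to an entry), was rare in this muscle. miR-130a-3p was at 2.73 to 7.39 CPM over the 18 libraries, miR-301a-3p at 0.0321 to 0.400 CPM and miR-130b-3p at up to 0.119 CPM, and miR-301b-3p had no count in any library. edgeR called 0 of the 3 tested in each comparison, beside 3.28%, 9.32% and 0.272% of all entries. For miR-301a-3p the log2 fold change was 1.16 in old CR against old AL (standard error 0.48, unadjusted p = 0.0314, adjusted p = 0.392 from edgeR) and 1.205 in old CR against young AL (standard error 0.45, unadjusted p = 0.0211, adjusted p = 0.115 from edgeR). It was 1 of 3 at an unadjusted p under 0.05 in each, beside 12% and 25.5% of all entries, and so no result about the list. Its level of at most 0.400 CPM was low, so these fold changes rest on few counts. Summed over the list the level was 2.76 to 7.72 CPM, far below that of miR-152-3p in any library.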

How the data were processed

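Small RNA of gastrocnemius muscle was sequenced from 18 rats in 3 groups of 6. Per the study's methods, reads were trimmed by Cutadapt and Sickle, miRDeep2 found the known and predicted miRNAs, and featureCount gave the raw counts per miRNA that the authors deposited. The submitters' processing notes also name Bowtie2 2.4.0, cutadapt 1.2.1 and the build Rnor_6.0. The miRBase release is not given in the sources used here. All columns matched a sample, with 0 left unused.

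Counts were compared with edgeR 4.0.16 in R 4.3.3 (TMM, robust quasi-likelihood test, the 12 libraries of 2 groups, at least 10 counts in total, Benjamini-Hochberg adjustment over all entries, two-sided). The standard error is the log2 fold change divided by the square root of F, and 95% intervals use the t distribution with the degrees of freedom of the test. DESeq2 1.42.0, the tool of the study's methods, was an alternative, beside RLE and upper-quartile factors, library totals, totals without the miR-1 family, other filters, 1 fit of all 3 groups, estimation that was not robust, known miRNAs only and libraries left out. Levels used TMM over all libraries, and 0.5 was added on the log2 scale and in ratios. Correlations used 100000 permutations. Each library came from a separate rat, and replicate numbers only name the rats. The labels give no batch.

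The members and lists were chosen with earlier results of these data known. The text names every family row, the list members and, for each main strand, the 3 known miRNAs of at least 10 CPM most like it.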

Additional observations from a re-analysis of the deposited data

Results flagged for a closer look

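In 36 sets of 6 libraries (the CPM of the 6 members and 6 log2 ratios of counts, in 3 groups), 6 had a highest or lowest library whose gap to the next exceeded 0.625 of the group's whole range, Dixon's 95% critical value, which chance exceeds in about 1 of 20 groups. Of the 6, 4 belonged to old AL replicate 8. rno-miR-148a-3p was at 6408 CPM there against 895 to 1633 CPM in the rest of old AL, and rno-miR-148a-5p at 47.9 CPM against 5.56 to 10.0 CPM. The log2 ratio of miR-152-3p to miR-148a-3p was -4.92 there and -2.91 to -1.95 in the rest of old AL, and that of miR-152-3p to miR-148b-3p was 1.24 against 1.59 to 1.80. The other 2 belonged to young AL replicate 4, with 4874 CPM of rno-miR-148a-3p (the rest 1164 to 2472 CPM) and 1.94 CPM of rno-miR-152-5p (the rest 0.813 to 1.14 CPM). CPM values are skewed to the right, which Dixon's limit does not allow for, and the sets overlap, since a member enters several ratios.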

How the results depend on the processing

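0 of the 6 members were called in each comparison under every alternative run, DESeq2 included. In old CR against young AL an unadjusted p of 0.0372 was reached by miR-148b-5p with upper-quartile factors (adjusted p = 0.169, edgeR). Without young AL replicate 4, its highest young AL library, miR-148a-3p had a log2 fold change of 1.08, given as a description with no test. Over all entries the calls ranged from 0 to 84 in old AL against young AL (24 in the reported fit), from 45 to 109 in old CR against young AL (68) and from 0 to 19 in old CR against old AL (2), with 0 under library totals and 84 with DESeq2 in the first. No paired analysis was possible because the groups share no replicate number. Depth did not limit the main strands, and the 5p strands of miR-148b and miR-152 rest on 36 to 186 counts per library.

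Directions that turned belonged to estimates near 0 whose intervals include it, and the cause was not tested. With library totals the log2 fold change was 0.11 for miR-148a-3p and 0.25 for miR-148a-5p in old AL against young AL, -0.030 for miR-148b-3p and -0.014 for miR-152-3p in old CR against young AL, and -0.13 for miR-148b-5p in old CR against old AL. With upper-quartile factors the last 3 were -0.015, -0.0100 and -0.10. With totals without the miR-1 family miR-148a-5p gave 0.058 in old AL against young AL and miR-148b-5p -0.069 in old CR against old AL. With each library left out in turn, the log2 fold change ranged from -0.91 to 0.14 (miR-148a-3p) and from -1.0 to 0.18 (miR-148a-5p) in old AL against young AL, from -0.15 to 0.18 (miR-152-5p) in old CR against young AL, and from -0.13 to 0.056 (miR-148b-3p) and -0.095 to 0.16 (miR-148b-5p) in old CR against old AL.

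With each library left out, the difference in the log2 ratio of miR-148b-3p to miR-148a-3p ranged from 0.37 to 0.91 in old AL against young AL and from -1.43 to -0.86 in old CR against old AL, and that of miR-152-3p to miR-148a-3p from 0.38 to 1.03 and from -1.55 to -0.83. All 4 were farthest from 0 without old AL replicate 8, the old AL library lowest in both ratios, and those values carry no test. In the first ratio, old CR replicates 13 and 14 were the old CR libraries nearest to old AL. Leaving out either by itself moves old CR away from old AL, so the values without them carry no test. The ratio of miR-152-3p to miR-148b-3p ranged from -0.040 to 0.16 (old AL against young AL), -0.11 to 0.12 (old CR against young AL) and -0.15 to 0.030 (old CR against old AL). The 3p to 5p ratio ranged from -0.035 to 0.12 for miR-148a in old AL against young AL and from -0.16 to 0.014 for miR-148b in old CR against old AL. For miR-152 it ranged from 0.47 to 0.76 in old AL against young AL. It ranged from -0.024 to 0.19 in old CR against young AL and from -0.66 to -0.36 in old CR against old AL. The values of 0.76 and -0.66 were those without old AL replicate 8, the old AL library lowest in this ratio, and carry no test. Old AL replicate 7 was the next lowest, so the values without it carry no test either. With old AL replicate 8 and old CR replicate 18 both left out, chosen after seeing the data, old CR against old AL differed by -1.21, -1.26 and -0.58 in the ratios of miR-148b-3p and miR-152-3p to miR-148a-3p and of miR-152-3p to miR-152-5p.

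The correlations depended on the scaling. With library totals r was 0.754 for miR-148a-3p with miR-148b-3p, 0.571 for miR-148a-3p with miR-152-3p and 0.789 for miR-148b-3p with miR-152-3p. With totals without the miR-1 family it was 0.648 for the first pair and 0.547 for the last. These 5 values passed an adjusted permutation p of 0.05. The pair miR-148a-3p with miR-152-3p did not pass with totals without the miR-1 family. All points share the scaling of their library, so shared scaling and members that vary together cannot be told apart here.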
